A study of Mus musculus with 24 samples.

Results

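The CDK inhibitors and D-type cyclins are 10 genes that set how readily an intestinal cell leaves G1 phase, and their RNA was followed here in mouse organoids in which oncogenic BRAFV600E, mutant p53R172H or both had been switched on. The genes were chosen by name: the CIP/KIP inhibitors Cdkn1a, Cdkn1b and Cdkn1c, the INK4 inhibitors Cdkn2a, Cdkn2b, Cdkn2c and Cdkn2d, and the D cyclins Ccnd1, Ccnd2 and Ccnd3. All 10 were found among the 45706 gene identifiers of the count tables, and all 10 passed the filter on low counts in every comparison.

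Organoids were grown from crypts of the proximal small intestine (SI) and the colon (COL) of C57BL/6N mice. The BRAF cultures were BraffloxV600E/+;Villin::CreERT2, the p53 cultures Trp53LSL-R172H/+;Villin::CreERT2, and the BRAFp53 cultures BraffloxV600E/+;Trp53LSL-R172H/+;Villin::CreERT2, so every group, controls included, carried the tamoxifen-inducible Cre under the epithelial Villin promoter. Induced (on) organoids had received 4-hydroxytamoxifen for 24 h, at 0.5 µM for SI and 3.5 µM for COL, and non-induced (off) organoids had received ethanol. RNA was isolated on day 8 for SI and on day 3 for COL, which leaves tissue, dose, day and the different culture media inseparable. Each genotype came from 1 culture per tissue with 2 on and 2 off libraries, making 12 groups and 24 libraries, so the p-values measure the spread between libraries of a culture, and genotype and donor cannot be told apart. The age of the mice was not given in the sources used here.

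D cyclins bind CDK4 and CDK6 and start the phosphorylation of the retinoblastoma protein, which releases E2F factors and opens S phase. INK4 proteins bind CDK4 and CDK6 and keep D cyclins off them, whereas CIP/KIP proteins bind cyclin-CDK complexes and block CDK2 above all. ERK signalling downstream of BRAF is a classical inducer of both sides, of Ccnd1 and of Cdkn1a. In the intestine these genes stand at the boundary between dividing crypt cells and cells that have stopped dividing, and in serrated tumours driven by BRAF the INK4 locus is a well-known barrier.

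Libraries held 44350747 to 78175143 counts, and 3 counts corresponded to 0.0368 to 0.0878 CPM (counts relative to library size, scaled by TMM factors over all 24 libraries), the floor used below. Trp53, whose R172H allele is silent until its stop cassette is removed, rose on induction by a log2 fold change of 0.94 in COL p53 (edgeR adjusted p = 0.0227), by 0.94 with both alleles in COL (adjusted p = 0.000623) and by 0.52 with both in SI (adjusted p = 0.0236), and was 157 and 161 CPM off against 268 and 277 CPM on in SI p53 (adjusted p = 0.194). It fell in COL BRAF (-0.44, adjusted p = 0.0332) and SI BRAF (-0.62, adjusted p = 0.00351). Braf had no call in any of the 6 cultures. It moved by 0.38 to 0.50 in the 4 cultures with its floxed allele, each on library above both off libraries. In the p53 cultures it moved by -0.29 (COL) and 0.11 (SI). These values check nothing, because recombination of Braf exchanges 1 allele for another. Epithelial Epcam stood at 359 to 651 CPM in every library, and 15 stromal, immune and endothelial markers summed to 3.0 to 11 CPM, with 9 of the 15 never reaching 1 CPM. The enterocyte lactase Lct of the small intestine reached no more than 0.265 CPM in COL, and the colonocyte gene Car1 no more than 0.267 CPM in SI. Not every marker followed the labelled tissue: the Paneth cell lysozyme Lyz1 was 229 to 1750 CPM in COL against 41.2 to 152 in SI, and the colon gene Car4 was 1.48 to 113 CPM in COL and 0 to 39.7 in SI, highest there in SI BRAF, while the distal colon gene Hoxb13 reached at most 0.435 CPM in COL. The sum of the stromal, immune and endothelial markers was higher on than off in the BRAF and BRAFp53 cultures of both tissues. Vim made up much of it and was 6.56 to 7.54 CPM on against 0.826 to 1.29 off in COL BRAF and 7.34 to 8.05 against 1.49 to 3.04 in SI BRAFp53. In SI BRAF the sum was 5.77 and 6.76 CPM on against 3.59 and 3 off, and without Vim 3.56 and 4.21 against 2.06 and 1.99. The part of these markers in the results was not tested. The COL BRAF culture held 32.1 to 49.4 CPM of the proximal marker Gata4, against 0.293 to 2.67 in the other COL cultures and 80.1 to 119 in SI. SI BRAF on library 1 held 17.1 CPM of Xist, expressed from the inactive X of female cells, against 0.234 to 0.471 CPM in the other 3 SI BRAF libraries and 115 to 166 CPM in the SI p53 and SI BRAFp53 cultures, so the tests of the 10 genes in SI BRAF that turn on it, and the list counts in SI BRAF, are also given without it. The COL cultures and SI BRAF held 80.5 to 171 CPM of 4 Y-linked genes, while SI p53 and SI BRAFp53 held at most 0.179 CPM. The tissue comparisons of p53, of BRAFp53 and of the off organoids, and the comparison of BRAFp53 with BRAF within SI, therefore also set cultures of different sex against each other, which cannot be told apart from tissue or genotype. Among the Y-linked genes, Eif2s3y was 0 to 0.114 CPM in COL BRAF and 5.72 to 10.2 CPM in COL BRAFp53. It was 61.4 to 73.9 CPM in COL p53 and 60.1 to 78.2 CPM in SI BRAF. The tissue comparison of BRAF thus also sets cultures that differ in this Y-linked gene against each other. In bulk RNA, fewer cells of a type and less RNA per cell cannot be told apart.

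Switching on BRAFV600E raised Cdkn1a in all 4 cultures that carried it, raised Cdkn2b in both SI cultures, and lowered Cdkn2c in both BRAF cultures. Cdkn1c rose in 3 of the 4, with a call that held under all 11 alternatives only in SI BRAFp53. Cdkn1b fell in COL BRAFp53 and SI BRAF. The most abundant D cyclin, Ccnd2, went up in COL and down in SI. Neither p53 culture had a called change in any of the 10 genes. In numbers, COL BRAF had 4 of the 10 called (3 higher, 1 lower), beside 19.9% of all tested genes (10.3% higher, 9.61% lower). COL BRAFp53 had 3 called (2 higher, 1 lower), beside 17.7% (9.95% higher, 7.76% lower). SI BRAF had 7 called (3 higher, 4 lower), beside 31.7% (17.5% higher, 14.2% lower), and 6 without SI BRAF on library 1. SI BRAFp53 had 5 called (4 higher, 1 lower), beside 11.5% (6.98% higher, 4.53% lower), and 2 to 4 when 1 of its libraries was left out. In COL BRAF the count was 1 to 3 with 1 library left out, and in COL BRAFp53 it stayed at 3.

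**Figure D1:**
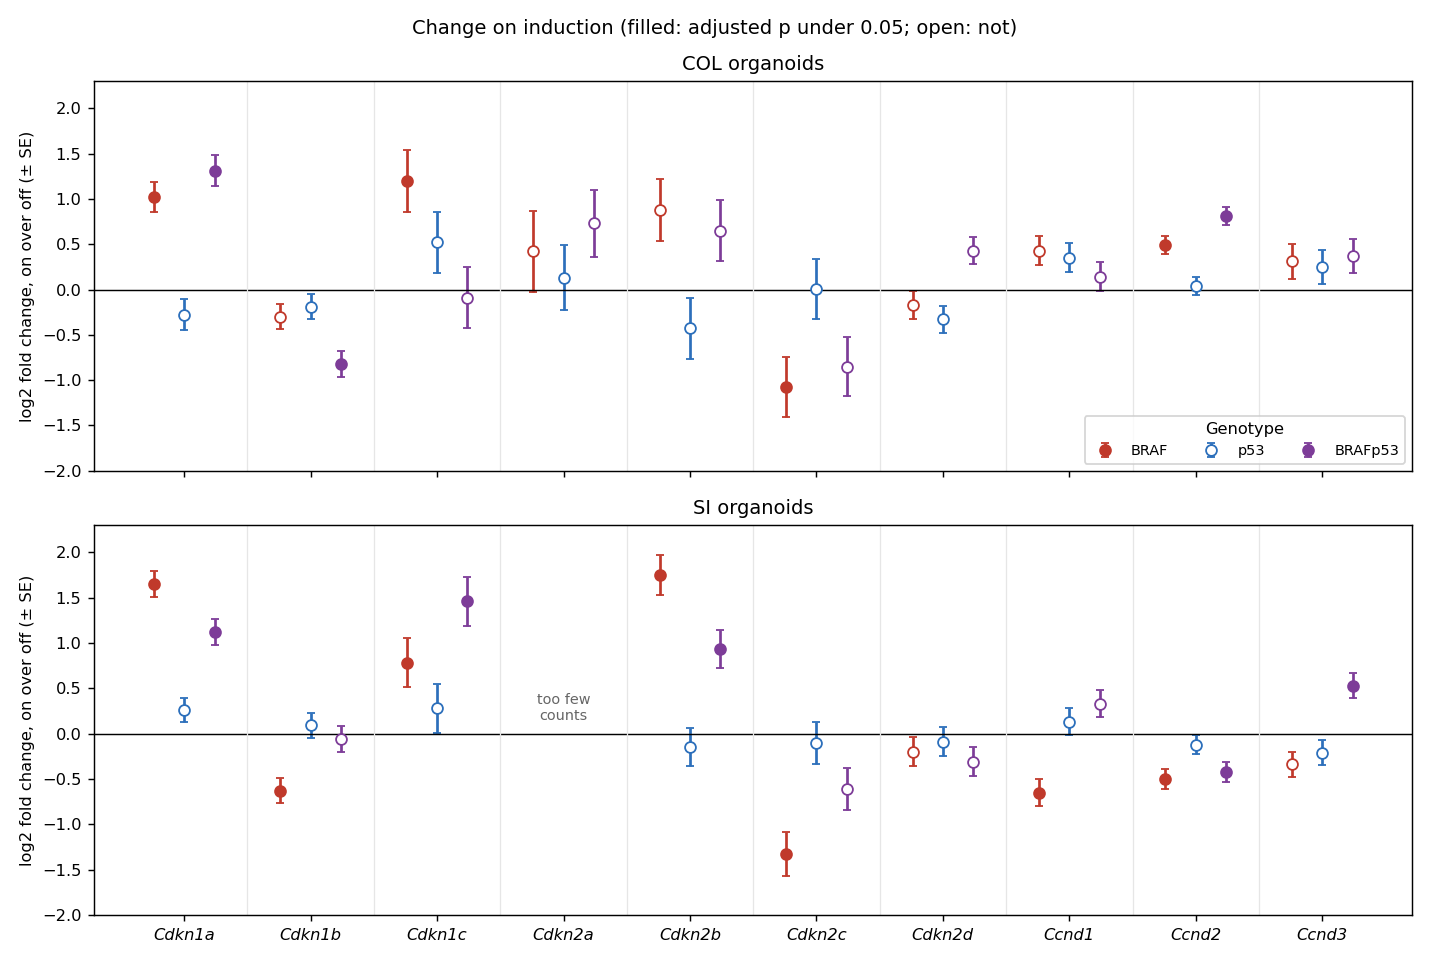
Log2 fold change of each gene on induction (on over off, ± SE of the edgeR fit, 2 against 2 libraries) in the BRAF, p53 and BRAFp53 cultures of COL (top) and SI (bottom), with filled symbols for an adjusted p under 0.05. Cdkn1a is filled and above 0 in the BRAF and BRAFp53 cultures of both tissues, from 1.02 to 1.65, while Ccnd2 is above 0 in COL and below 0 in SI, and no p53 symbol is filled.

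The median log2 fold change of the 10 genes was 0.42 in COL BRAF, 0.40 in COL BRAFp53, -0.27 in SI BRAF and 0.43 in SI BRAFp53, against -0.011, -0.044, -0.058 and -0.027 over all tested genes. These medians mix genes that act in opposite directions on the cell cycle. In the p53 cultures the medians were 0.03 (COL) and -0.04 (SI). There, edgeR, DESeq2 and limma-voom each called 0 of the 10, beside 0.142% (0.0316% higher, 0.111% lower) and 0% of all tested genes called by edgeR. At an unadjusted p under 0.05 the counts were 1 of the 10 in COL, beside 1583 of 18972 tested genes, and 0 of the 10 in SI, beside 873 of 16856.

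Cdkn1a encodes p21, the CIP/KIP inhibitor that p53 and ERK signalling are both known to induce. The gene lies on chromosome 17 (GRCm38, 29090976 to 29100727, + strand) with 5 annotated transcripts, and 7.68% of its exonic bases overlap AC167363.2 on the opposite strand. The window before the upstream start is shown because the gene rose whether or not mutant p53 was present. It is taken from RefSeq (GRCm38.p6, chr17:29090729-29090975, + strand), cut where annotated exons begin, with capitals marking matches to the p53 decamer motif.

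Cdkn1a: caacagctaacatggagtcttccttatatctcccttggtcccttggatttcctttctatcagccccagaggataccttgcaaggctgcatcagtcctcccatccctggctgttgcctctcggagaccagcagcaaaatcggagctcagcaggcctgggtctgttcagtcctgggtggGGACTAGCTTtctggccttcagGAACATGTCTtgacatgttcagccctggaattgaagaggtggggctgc

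The 2 matches began 73 and 51 bases before the start. Such a decamer occurs in 7.13% of all 32851 promoter windows of this length, on either strand, and a match is a description of letters, not of binding.

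In COL BRAF, Cdkn1a stood at 589.8 and 635 CPM on against 299 and 304 CPM off. In COL BRAFp53 it stood at 404 and 295 CPM on against 142 and 142 CPM off. Each on library was above both off libraries of its culture, although the lower COL BRAFp53 on library lay no higher than the COL BRAF off libraries. In SI BRAF the values were 607 and 765 CPM on against 208 and 214 CPM off. In SI BRAFp53 they were 418 and 447 CPM on against 215 and 174 CPM off. The groups again did not overlap, and SI BRAF on held the highest level of the 12 groups, overlapping with COL BRAF on. The log2 fold changes were 1.02 ± 0.17 (SE; 2.03-fold; edgeR adjusted p = 0.00152) in COL BRAF and 1.31 ± 0.17 (2.48-fold; adjusted p = 0.000453) in COL BRAFp53. They were 1.65 ± 0.14 (3.14-fold; adjusted p = 1.85e-06) in SI BRAF and 1.12 ± 0.14 (2.17-fold; adjusted p = 0.000135) in SI BRAFp53. Cdkn1a kept its call in each of these 4 cultures under all 11 alternatives tried, and without SI BRAF on library 1 its change in SI BRAF was 1.82. In the p53 cultures the values were 247 and 200.2 CPM on against 305 and 230.3 off in COL, and 228 and 188 on against 177 and 165 off in SI, with changes of -0.28 (95% interval -0.61 to 0.05) and 0.26 (0.00 to 0.52).

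**Figure D2:**
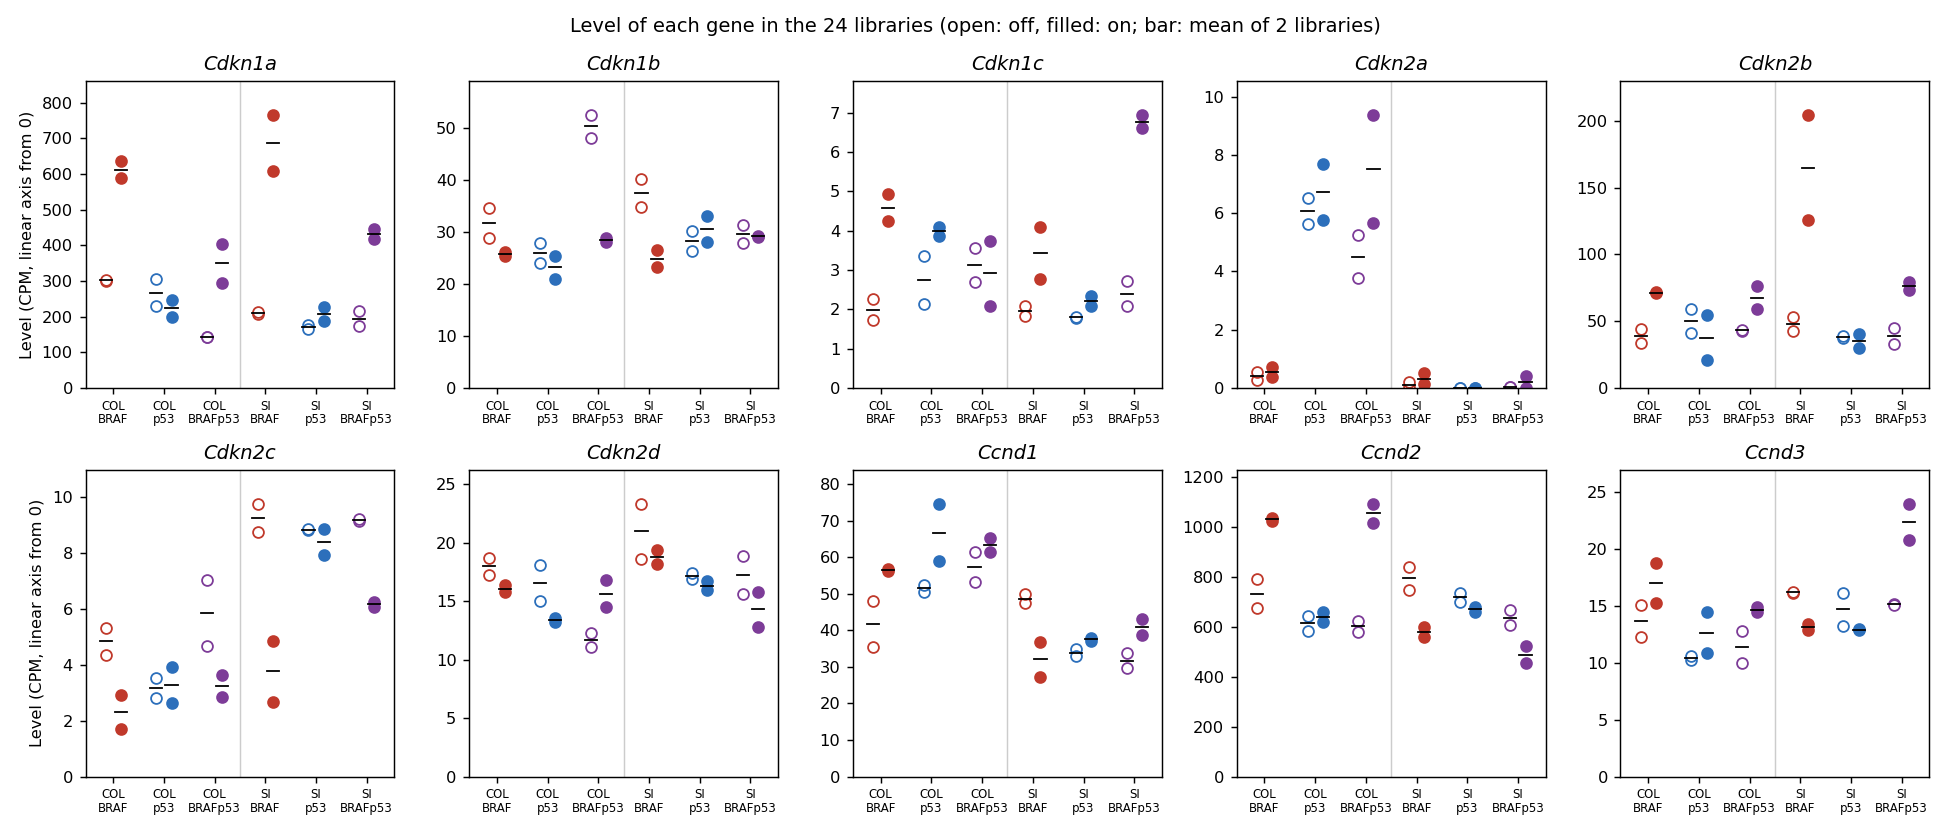
Level of each gene in CPM (linear axes from 0) in every library, with open circles for off, filled circles for on and a bar at the mean of the 2 libraries of a group. The filled Cdkn1a points of the BRAF and BRAFp53 cultures, 295 to 765 CPM, lie above the open points of the same culture, and Cdkn2a is near 0 in SI and in COL BRAF but between 3.76 and 9.37 CPM in COL p53 and COL BRAFp53.

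Cdkn1b encodes p27, the CIP/KIP inhibitor associated with quiescence, which is controlled mostly by protein turnover. It lies on chromosome 6 (GRCm38, 134920401 to 134925513, + strand). Its RNA went down where it changed at all. In COL BRAFp53 it was 28.9 and 28.0 CPM on against 48.2 and 52.5 CPM off, a log2 fold change of -0.82 ± 0.14 (adjusted p = 0.00213). In SI BRAF it was 26.6 and 23.2 CPM on against 40.2 and 34.8 CPM off, a change of -0.63 ± 0.14 (adjusted p = 0.00386) that was -0.73 without SI BRAF on library 1. The COL BRAFp53 off level was the highest of the 12 groups and stood apart from all others, so that the fall there ended at the level of the remaining cultures. COL BRAF had 26.2 and 25.4 CPM on against 34.7 and 28.8 off, with no call (-0.30, adjusted p = 0.162). SI BRAFp53 had 29.2 and 29.1 CPM on against 27.9 and 31.4 off, a change of -0.06 with a 95% interval of -0.33 to 0.21.

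Cdkn1c encodes p57, the imprinted CIP/KIP inhibitor, and was a low gene here at 1.72 to 6.93 CPM (90 to 388 counts). It lies on chromosome 7 (GRCm38, 143458339 to 143461050, - strand), and 30.7% of its exonic bases overlap the antisense transcript Gm44732, which cannot be separated if strand was not used in counting. In SI BRAFp53 it was 6.93 and 6.60 CPM on against 2.72 and 2.07 CPM off, the highest on level of the 12 groups, with a change of 1.46 ± 0.27 (adjusted p = 0.0031) that held under all 11 alternatives. In COL BRAF it was 4.24 and 4.92 CPM on against 1.72 and 2.26 CPM off (1.20 ± 0.34, adjusted p = 0.0297). That call was lost on leaving out any 1 of the 4 libraries, with changes of 1.01 to 1.41. In SI BRAF it was 4.10 and 2.78 CPM on against 2.08 and 1.83 CPM off (0.78 ± 0.27, adjusted p = 0.0443). That call held under 4 of the 11 alternatives. The change was 0.47 without SI BRAF on library 1, 0.85 without off library 1 and 0.69 without off library 2, each without a call. COL BRAFp53 on libraries stood at 3.74 and 2.08 CPM, on both sides of the off libraries at 2.68 and 3.55 CPM.

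Among the INK4 genes, Cdkn2b encodes p15, an inhibitor of CDK4 and CDK6 known as a target of TGF-β. It lies on chromosome 4 (GRCm38, 89306299 to 89311039, - strand), next to Cdkn2a, and neither overlaps another annotated gene. The bases before its start are shown because Cdkn2b was the INK4 gene that rose on induction (RefSeq, GRCm38.p6, chr4:89311040-89311282, - strand), with capitals for a match to the cyclic AMP response element TGACGTCA.

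Cdkn2b: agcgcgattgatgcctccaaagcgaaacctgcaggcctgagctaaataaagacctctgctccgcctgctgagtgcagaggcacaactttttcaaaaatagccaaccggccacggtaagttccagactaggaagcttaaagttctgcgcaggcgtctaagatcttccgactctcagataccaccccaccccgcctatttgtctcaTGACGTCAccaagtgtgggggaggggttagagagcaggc

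TGACGTCA occurs in 1.55% of all promoter windows and in none of the other windows of these genes. The 7 genes with a RefSeq promoter entry, 11 windows of 250 bases in all, were searched on both strands for SP1 (GGGCGG, in 32.7% of all windows), E2F (TTTCCCGC, 0.895%, and TTTGGCGC, 0.417%), ETS (CCGGAAG, 6.91%), AP-1 (TGANTCA, 6.75%), the E-box (CACGTG, 6.02%), TGACGTCA and the p53 decamer. TTTCCCGC was found once, 99 bases before the upstream Cdkn2a start, and SP1 letters in Ccnd3, Cdkn1a, Cdkn1b, Cdkn2a, Cdkn2c and Cdkn2d. CCGGAAG was found before 1 Ccnd3 start and the p53 decamer also before Cdkn2d, whose decamer overlaps an SP1 match. No window held AP-1, E-box or TTTGGCGC letters.

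In SI BRAF, Cdkn2b was 126 and 204 CPM on against 52.9 and 42.3 CPM off, the highest level of the 12 groups. In SI BRAFp53 it was 79.2 and 73.5 CPM on against 45.0 and 33.0 CPM off. The on and off libraries were apart in both cultures. The changes were 1.75 ± 0.22 (3.36-fold; adjusted p = 4.84e-05) and 0.93 ± 0.21 (1.91-fold; adjusted p = 0.012). The first was 2.06 without SI BRAF on library 1, and the second lost its call without SI BRAFp53 on library 1 (0.89, adjusted p = 0.0522) or off library 2 (0.74, adjusted p = 0.123). In COL BRAF the gene was 71.1 and 71.8 CPM on against 43.8 and 33.5 CPM off, and in COL BRAFp53 76.0 and 59.0 on against 42.6 and 43.5 off. The COL groups did not overlap either, but the changes of 0.88 ± 0.34 (adjusted p = 0.0917) and 0.65 ± 0.34 (adjusted p = 0.215) were not called. Fitted on the 4 libraries of the culture alone, both COL changes were called (0.90, adjusted p = 0.00216, and 0.65, adjusted p = 0.0315), as they were over all 12 libraries without a filter on low counts (0.87, adjusted p = 2.61e-07, and 0.66, adjusted p = 0.000182). The COL BRAF change was called as well with at least 10 counts in every library (0.90, adjusted p = 0.0487).

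Cdkn2c encodes p18, the INK4 inhibitor that is itself transcribed with the cell cycle in many dividing cells. It lies on chromosome 4 (GRCm38, 109660876 to 109667189, - strand), and its level here was 1.70 to 9.75 CPM. It moved against Cdkn1a and Cdkn2b. In SI BRAF it was 4.85 and 2.66 CPM on against 9.75 and 8.73 CPM off, a change of -1.33 ± 0.24 (adjusted p = 0.000954) that was -1.83 without SI BRAF on library 1. In COL BRAF it was 1.70 and 2.90 CPM on against 4.36 and 5.30 CPM off (-1.08 ± 0.33, adjusted p = 0.0398). The COL call was lost without on library 1 (-0.75, adjusted p = 0.269), off library 1 (-1.22, adjusted p = 0.0755) or off library 2 (-0.92, adjusted p = 0.181). The BRAFp53 cultures had lower on than off values in every library without a call: 2.86 and 3.63 against 7.03 and 4.66 CPM in COL (-0.85, adjusted p = 0.0973), and 6.07 and 6.26 against 9.13 and 9.22 CPM in SI (-0.61, adjusted p = 0.115).

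Cdkn2d encodes p19 of the INK4 family, a protein distinct from p19ARF. It lies on chromosome 9 (GRCm38, 21288410 to 21291407, - strand) and stood at 11.1 to 23.3 CPM, with no change called by edgeR in any culture. Its largest value was 0.43 ± 0.15 in COL BRAFp53 (16.8 and 14.5 CPM on against 12.3 and 11.1 off, adjusted p = 0.0728), which DESeq2 called (0.44, adjusted p = 0.0363), and the other 5 changes lay between -0.33 and -0.09.

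Cdkn2a, on chromosome 4 (GRCm38, 89274471 to 89294653, - strand), encodes p16INK4a from one start and p19ARF, which protects p53 from MDM2, from another. The 2 annotated transcripts share exons, so counts per gene cannot separate these products. Its level differed more between cultures than between on and off. The SI p53 libraries held 0 counts in 4 of 4, and the other SI libraries 0 to 24 counts. COL BRAF held 19 to 47 counts per library (0.266 to 0.708 CPM). COL p53 held 428 to 577 counts (5.64 to 7.71 CPM) and COL BRAFp53 265 to 607 counts (3.76 to 9.37 CPM). The COL p53 and COL BRAFp53 ranges lay above those of all other cultures, in the off state as in the on state. No on-versus-off change was called. In COL the values were 0.708 and 0.362 CPM on against 0.266 and 0.545 off for BRAF (0.42, 95% interval -0.46 to 1.31), 7.71 and 5.76 against 5.64 and 6.52 for p53 (0.13, -0.59 to 0.84), and 5.66 and 9.37 against 3.76 and 5.25 for BRAFp53 (0.73, adjusted p = 0.199). Each COL BRAFp53 on library was above both off libraries, at an unadjusted edgeR p of 0.069. In SI a change was not detectable at these counts: SI BRAF had 0.512 and 0.117 CPM on against 0.0232 and 0.210 off, the higher of the on values being library 1, and SI BRAFp53 had 0 and 0.408 on against 0.0391 and 0.0387 off.

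Ccnd2 had the most RNA of the D cyclins, with 80 to 89.8% of the summed D cyclin level per exonic length (RPKM) in every library. It lies on chromosome 6 (GRCm38, 127125162 to 127152193, - strand). In COL BRAF it stood at 1022 and 1036 CPM on against 673 and 789 CPM off, and in COL BRAFp53 at 1015 and 1091 CPM on against 623 and 578 CPM off. In SI BRAF it stood at 596.5 and 558 CPM on against 748 and 839.6 CPM off, and in SI BRAFp53 at 522 and 453 CPM on against 607 and 665 CPM off. The 4 COL on libraries were the highest of all 24 and the 2 SI BRAFp53 on libraries the lowest, from off levels that overlapped between the tissues. The changes were 0.49 ± 0.10 in COL BRAF (1.40-fold; adjusted p = 0.0055) and 0.81 ± 0.10 in COL BRAFp53 (1.75-fold; adjusted p = 0.000341). In SI they were -0.50 ± 0.11 in BRAF (0.707-fold; adjusted p = 0.00309; -0.55 without SI BRAF on library 1) and -0.42 ± 0.11 in BRAFp53 (0.747-fold; adjusted p = 0.0232). The COL BRAF call was lost without off library 1 (0.37, adjusted p = 0.0712) and the SI BRAFp53 call without on library 2 or off library 2 (-0.33 in both, adjusted p = 0.238 and 0.188). In the p53 cultures Ccnd2 was 659 and 620.1 CPM on against 582 and 644 off in COL (0.04), and 659 and 680.0 on against 734 and 699 off in SI (-0.12).

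Ccnd1, the D cyclin best known as an ERK and Wnt target, lies on chromosome 7 (GRCm38, 144929931 to 144939925, - strand). Of its exonic bases, 23.4% overlap LTO1 on the opposite strand. LTO1 had no called change in any culture. In SI BRAF, Ccnd1 was 36.9 and 27.2 CPM on against 47.5 and 49.9 CPM off, a change of -0.65 ± 0.15 (adjusted p = 0.00522) that was -0.88 without SI BRAF on library 1. In SI BRAFp53 it was 43.1 and 38.7 CPM on against 29.6 and 33.8 CPM off (0.33 ± 0.15, adjusted p = 0.192). In COL BRAF it was 56.2 and 56.9 CPM on against 35.4 and 48.0 CPM off (0.43 ± 0.16, adjusted p = 0.0794), and in COL BRAFp53 61.4 and 65.3 on against 53.3 and 61.5 off (0.14, 95% interval -0.17 to 0.46). The decrease in SI BRAF was the only called change of Ccnd1 among the 6 cultures, and in COL p53 it was 74.6 and 58.9 CPM on against 50.6 and 52.3 CPM off (0.35, adjusted p = 0.594). Leaving out COL BRAF off library 2 (0.68, adjusted p = 0.0291), using DESeq2 (0.44, adjusted p = 0.0358) or changing the filter on low counts put the COL BRAF rise past the threshold.

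Ccnd3 lies on chromosome 17 (GRCm38, 47505051 to 47599691, + strand) and was the scarcest D cyclin per length, at 1.14 to 2.73 RPKM. In SI BRAFp53 it was 24.0 and 20.8 CPM on against 15.2 and 15.1 CPM off, the highest on level of the 12 groups, with a change of 0.53 ± 0.14 (adjusted p = 0.0295). That call was lost on leaving out any 1 of the 4 libraries (0.44 to 0.62, adjusted p = 0.07 to 0.186). Bysl, which shares 4.11% of the exonic bases of Ccnd3 on the opposite strand, rose in the same culture (0.52, adjusted p = 0.0274), and its part in the Ccnd3 counts was not tested. In SI BRAF Ccnd3 was 12.9 and 13.4 CPM on against 16.1 and 16.2 CPM off (-0.34, adjusted p = 0.0898; -0.31 without SI BRAF on library 1). The COL changes lay between 0.25 and 0.37 with no call.

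Per exonic length, the 3 CIP/KIP genes together reached 174 and 187 RPKM in COL BRAF on libraries against 92.7 and 92.9 RPKM off, and 179 and 222 RPKM in SI BRAF on against 68.3 and 68.8 off. Cdkn1a supplied most of this, with 40.9 to 71.5% of the summed RPKM of all 7 inhibitors across the 24 libraries. The 4 INK4 genes reached 104 and 160.5 RPKM in SI BRAF on against 56.6 and 45.7 RPKM off, most of it Cdkn2b, which made up 32.0 and 38.5% of the inhibitor sum in those on libraries. The summed D cyclins stood at 122 and 124 RPKM in COL BRAF on against 80.8 and 95.5 off, but at 72.7 and 66.7 in SI BRAF on against 91.4 and 101.7 off. Within the D cyclins of SI BRAFp53 the Ccnd1 share was 13.6 and 14.0% on against 8.68 and 9.02% off, and the Ccnd3 share 4.05 and 4.03% on against 2.38 and 2.16% off. The Ccnd2 share was 82.4 and 82.0% on against 88.9 and 88.8% off.

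**Figure D3:**
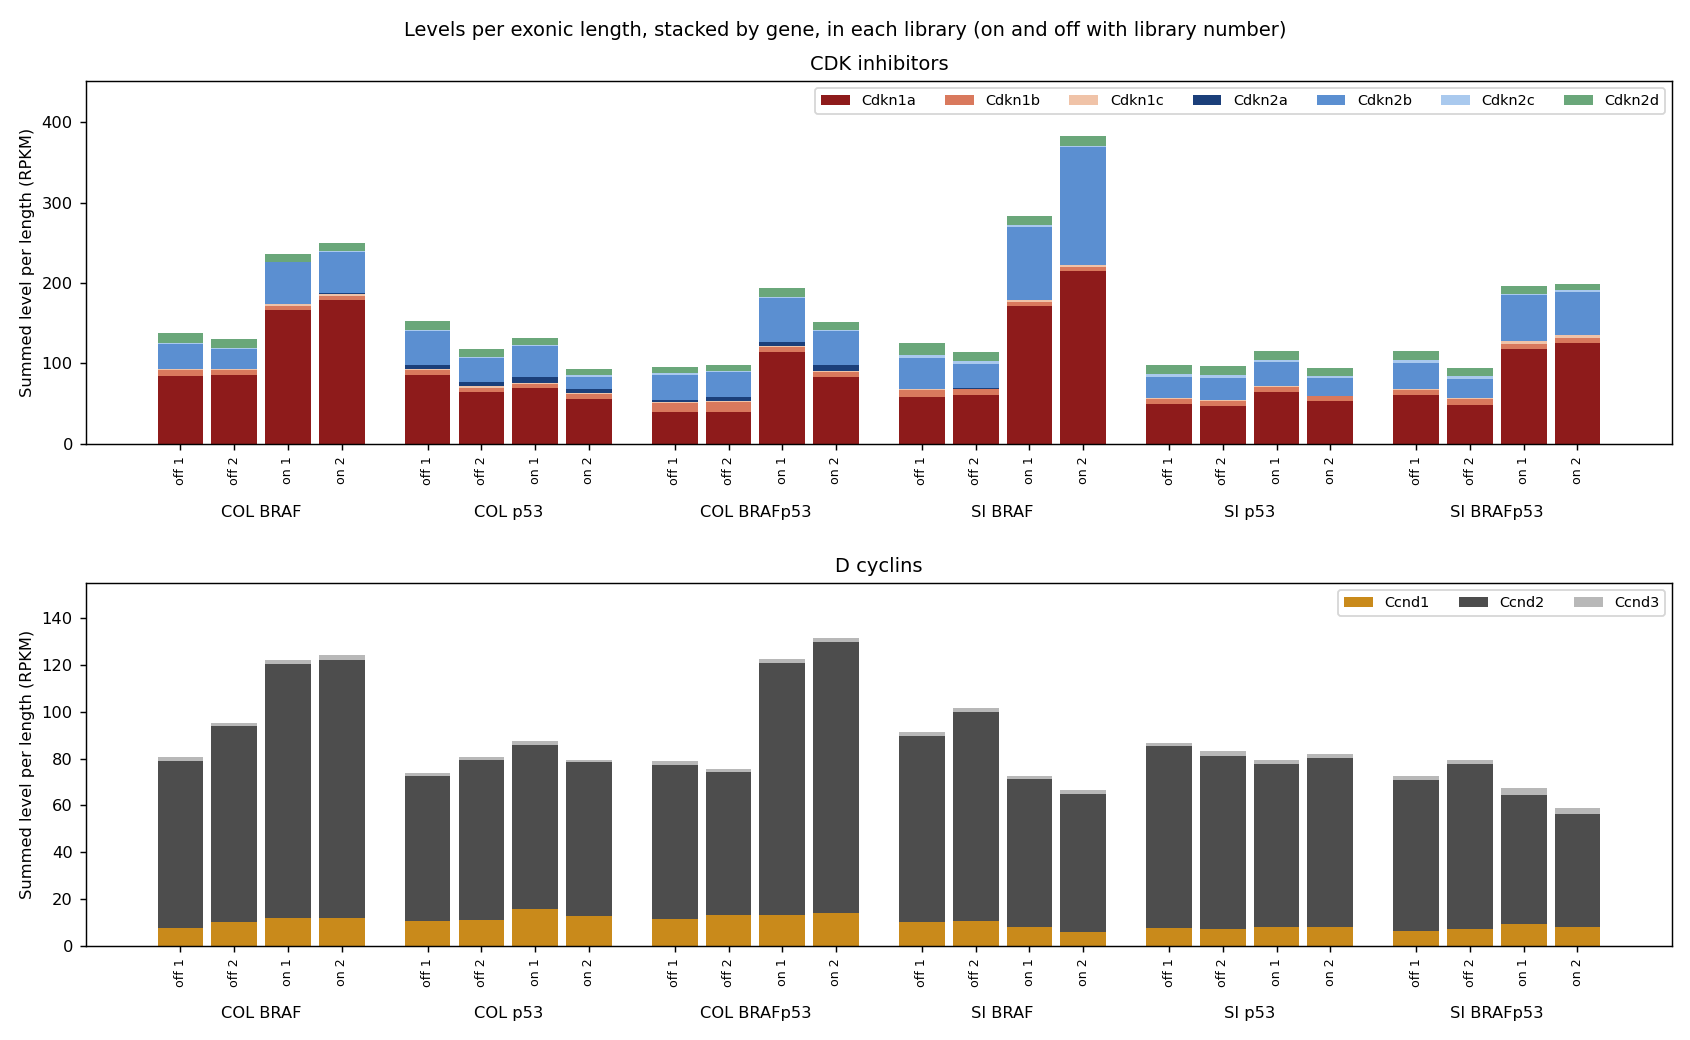
Summed level per exonic length (RPKM, stacked bars from 0) of the 7 CDK inhibitors (top) and the 3 D cyclins (bottom) in each of the 24 libraries, grouped by culture with off before on. Cdkn1a and Cdkn2b fill most of each inhibitor bar and Ccnd2 80 to 89.8% of each D cyclin bar, and the D cyclin bars of induced COL BRAF and COL BRAFp53 are taller, those of induced SI BRAF shorter, than the off bars of the same culture.

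Whether a gene responded differently in the tissues was tested in a joint fit of all 24 libraries. For BRAF, 2 of the 10 genes differed between COL and SI, beside 10.7% of all tested genes (3.31% higher and 7.4% lower in COL). Ccnd2 differed by 0.95 ± 0.14 (COL minus SI, difference of log2 fold changes, adjusted p = 0.000271) and Ccnd1 by 1.04 ± 0.22 (adjusted p = 0.00416). Without SI BRAF on library 1 the Ccnd2 difference kept its call (adjusted p = 0.00058) and that of Ccnd1 was 1.28 (adjusted p = 0.00123). For BRAFp53, 3 of the 10 differed, beside 3.52% (1.39% higher, 2.13% lower). Ccnd2 again differed most firmly, by 1.19 ± 0.14 (adjusted p = 0.000155). Both Ccnd2 differences kept their call under all 14 alternatives, at 0.84 to 1.07 and 1.10 to 1.33. Cdkn1b differed by -0.80 ± 0.20 (adjusted p = 0.0307) and Cdkn1c by -1.59 ± 0.43 (adjusted p = 0.0485). The Cdkn1b call was lost on leaving out any 1 of the 8 libraries (-0.88 to -0.71), and that of Cdkn1c for 7 of the 8 (-1.80 to -1.23), the exception being COL BRAFp53 on library 1. The Cdkn1a difference was not called by edgeR, at -0.68 for BRAF (95% interval -1.13 to -0.23, adjusted p = 0.0668) and 0.15 for BRAFp53 (-0.30 to 0.60). For BRAF it was called by DESeq2 (-0.68, adjusted p = 0.0255), without a filter on low counts (-0.67, adjusted p = 0.00455), with the replicate block (-0.67, adjusted p = 0.0432) and without SI BRAF on library 1 (-0.83, adjusted p = 0.0367). Cdkn2b in BRAF (-0.91, adjusted p = 0.231) was called without a filter on low counts (-0.90, adjusted p = 0.000662). Cdkn2d in BRAFp53 (0.69, adjusted p = 0.0865) was called by DESeq2 (0.75, adjusted p = 0.0167) and with at least 10 counts in every library (0.73, adjusted p = 0.0437). For p53, edgeR, DESeq2 and limma-voom called 0 of the 10, beside 0.117% of all tested genes called by edgeR (0.0102% higher, 0.107% lower). At an unadjusted p under 0.05 there was 1 of the 10, beside 1532 of 19673 tested genes.

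Whether p53R172H altered the response to BRAFV600E was tested within each tissue. In SI, 2 of the 10 genes differed, beside 8.2% of all tested genes (1.93% higher, 6.28% lower). Ccnd1 differed by 0.97 ± 0.21 (BRAFp53 minus BRAF, adjusted p = 0.0131) and Ccnd3 by 0.87 ± 0.20 (adjusted p = 0.0189), and both D cyclins had lower on than off levels with BRAF alone and higher with both alleles. The off means of Ccnd1 already differed, at 48.7 CPM in SI BRAF and 31.7 CPM in SI BRAFp53. Its on means were 32.1 and 40.9 CPM, so much of the Ccnd1 difference lies in the non-induced cultures. For Ccnd3 the means were 16.2 and 15.1 CPM off and 13.2 and 22.4 CPM on. The Ccnd1 call was lost without SI BRAF off library 2 (0.93), SI BRAFp53 on library 1 (0.89) or SI BRAFp53 off library 1 (0.88), with adjusted p = 0.0531 to 0.0745. The Ccnd3 call was lost without those same 3 libraries or SI BRAFp53 off library 2 (0.76 to 0.87, adjusted p = 0.0526 to 0.0904). Without SI BRAF on library 1, Ccnd1 differed by 1.22 (adjusted p = 0.00145) and Ccnd3 by 0.85 (adjusted p = 0.0317), and Cdkn1a (-0.69, adjusted p = 0.0313), Cdkn2b (-1.12, adjusted p = 0.0142) and Cdkn2c (1.24, adjusted p = 0.012) differed as well. With that library kept, these 3 were at -0.54, -0.81 and 0.72 with adjusted p = 0.106, 0.121 and 0.222. Also with that library kept, Cdkn1a and Cdkn2b were called by DESeq2 (-0.56 and -0.84, adjusted p = 0.0329 and 0.0317) and without a filter on low counts (-0.53 and -0.80, adjusted p = 0.0432 and 0.00199). In COL, edgeR, DESeq2 and limma-voom called 0 of the 10, beside 0.907% of all tested genes called by edgeR (0.532% higher, 0.374% lower). At an unadjusted p under 0.05 there were 4 of the 10, beside 3596 of 18972 tested genes. The 95% interval for Cdkn1a in COL was -0.18 to 0.75 around 0.29, and for Ccnd2 0.04 to 0.60 around 0.32. The BRAFp53 response enters both kinds of comparison, so they are not independent.

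**Figure D4:**
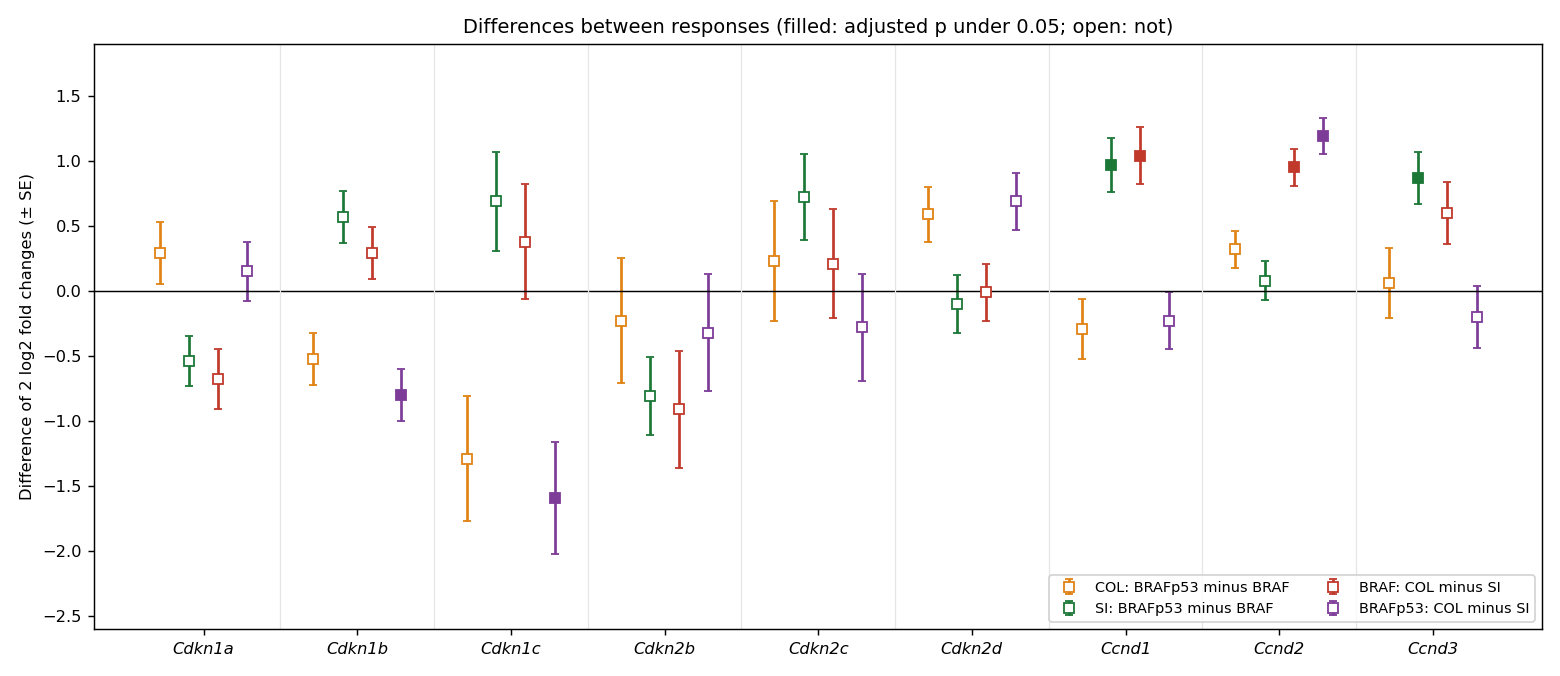
Difference of log2 fold changes (± SE) for each gene between BRAFp53 and BRAF within COL and SI, and between COL and SI within BRAF and BRAFp53, with filled symbols for an adjusted p under 0.05 and Cdkn2a left out for its counts in SI. Ccnd2 is filled for COL minus SI in both genotypes (0.95 and 1.19), and Ccnd1 and Ccnd3 are filled for SI BRAFp53 minus BRAF (0.97 and 0.87).

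The off organoids of the tissues were compared with 3 cultures on each side. Of these, 2 in SI lack the summed Y-linked RNA that all 3 in COL hold. Between the tissues, 2 of the 10 genes differed, beside 29.6% of all tested genes (17% higher and 12.6% lower in COL). Cdkn2c was lower in COL (log2 difference -0.95 ± 0.25, adjusted p = 0.0294), with 2.82 to 7.03 CPM in COL against 8.73 to 9.75 in SI. Cdkn1a had no call (0.33) but passed without COL BRAFp53 (0.59, adjusted p = 0.0464). The Cdkn2c call was lost on leaving out any 1 of the 3 SI cultures (-0.98 to -0.95, adjusted p = 0.0673 to 0.0897). Cdkn2a was higher in COL (adjusted p = 0.018), with 54, 915 and 645 counts summed over the off libraries of the BRAF, p53 and BRAFp53 cultures of COL against 13, 0 and 4 in SI. The fitted size depends on how 0 counts are handled and is not given. For the p53 cultures the COL off mean of 6.08 CPM was at least 125-fold higher than the SI floor of 3 counts per library. This call was lost without COL BRAFp53 (adjusted p = 0.0525), without SI BRAFp53 (adjusted p = 0.0717) and with limma-voom (adjusted p = 0.0889). The D cyclins had no called difference, with 0.42 for Ccnd1 (95% interval 0.01 to 0.82), -0.12 for Ccnd2 (-0.44 to 0.19) and -0.34 for Ccnd3 (-0.66 to -0.02). Their unadjusted edgeR p-values were 0.0839, 0.467 and 0.0734, so the intervals of Ccnd1 and Ccnd3 are too narrow here.

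Transcripts of S phase, downstream of these genes, fell in the BRAF cultures and had 4 and 0 calls in COL and SI BRAFp53. The counts of each list below stand beside 19.9% of all tested genes called in COL BRAF, 17.7% in COL BRAFp53, 31.7% in SI BRAF and 11.5% in SI BRAFp53. Of 16 E2F and S-phase targets, 13 fell and 0 rose in COL BRAF (8 to 12 with 1 library left out) and 10 fell and 0 rose in SI BRAF (5 to 14, and 14 without SI BRAF on library 1). Their median log2 fold changes were -0.75 and -0.68. In COL BRAFp53 4 of the 16 fell (4 to 8 with 1 library left out, median -0.42), and in SI BRAFp53 edgeR called 0, with 3 at an unadjusted p under 0.05 and up to 2 under the alternatives (median -0.24). Examples in COL BRAF were the helicase subunit Mcm4 (-0.81 ± 0.17, adjusted p = 0.00594), and the thymidylate synthase gene Tyms (-0.84, adjusted p = 0.00157). In SI BRAF Mcm6 of the same helicase changed by -1.28 ± 0.18 (adjusted p = 0.000163). Of 25 CDK, cyclin and Rb-E2F genes, 9 fell and 1 rose in COL BRAF (10 called, 5 to 8 with 1 library left out), 13 fell and 0 rose in SI BRAF (9 to 17, and 16 fell and 1 rose without SI BRAF on library 1), 4 fell and 1 rose in COL BRAFp53 (5 called, 1 to 5), and 1 fell in SI BRAFp53 (0 with any 1 library left out). The catalytic partners of the D cyclins were among those that fell in SI BRAF, Cdk6 by -1.01 ± 0.19 (adjusted p = 0.00122) and Cdk4 by -0.93 ± 0.17 (adjusted p = 0.00104). Cdk4 also fell in COL BRAF, by -0.64 ± 0.14 (adjusted p = 0.00725), where Cdk6 moved by 0.11 with no call. Neither had a call in the BRAFp53 cultures. In COL BRAFp53 the cyclin E gene Ccne1, partner of CDK2, rose by 0.61 ± 0.17 (adjusted p = 0.028). Of 13 genes for turnover of these proteins, 3 fell and 1 rose in COL BRAF, 4 fell in COL BRAFp53, 4 fell and 1 rose in SI BRAF and 1 fell in SI BRAFp53, and with 1 library left out the counts called were 1 to 2, 3 to 4, 3 to 8 and 1. The 5 of 13 in SI BRAF and the 1 of 13 in SI BRAFp53 were near the background shares, and no result about the list is read from them. The same holds for the 5 of 25 CDK, cyclin and Rb-E2F genes in COL BRAFp53. Dtl, the substrate receptor of the ligase that degrades p21, fell in COL BRAF (-1.25), COL BRAFp53 (-1.18) and SI BRAF (-1.21, adjusted p = 0.0072, and -1.92 without SI BRAF on library 1). The deubiquitinase Usp2, which stabilises cyclin D1, fell in SI BRAF (-0.83, adjusted p = 0.00117) and SI BRAFp53 (-1.27, adjusted p = 0.000123).

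Upstream, 10 of 13 ERK output genes rose in COL BRAF, 9 in COL BRAFp53, 9 in SI BRAFp53 (5 to 7 with 1 library left out) and 5 in SI BRAF, where 2 fell (7 called, 4 to 6 with 1 library left out), among them Myc (-0.79, adjusted p = 0.00875, and -1.21 without SI BRAF on library 1). Dusp6, the ERK phosphatase, rose by 3.10 ± 0.18 in SI BRAF and 2.11 ± 0.19 in COL BRAFp53. Of 22 p53 targets without Cdkn1a, 13 rose and 1 fell in both COL BRAF and COL BRAFp53. In SI BRAF 6 rose and 2 fell (8 called, 3 to 9 with 1 library left out, and 6 rose and 3 fell without SI BRAF on library 1), and in SI BRAFp53 5 rose and 1 fell (6 called, 1 to 3). The 8 of 22 in SI BRAF were near the 31.7% of all tested genes, and no result about the list is read from them. Plk3, a stress kinase, rose in all 4 cultures, from 1.72 in SI BRAF to 2.33 in SI BRAFp53. Of 18 genes known to act on the INK4 locus, 16 were tested, and 1 rose in COL BRAF (1 to 2 called with 1 library left out), 3 rose and 4 fell in COL BRAFp53 (7 called, 3 to 5 with 1 library left out), 5 rose and 6 fell in SI BRAF and 4 rose in SI BRAFp53 (0 to 2 with 1 library left out). Id3 and Id1, inhibitors of the factors that activate Cdkn1a and Cdkn2a, rose in SI BRAF by 1.67 ± 0.16 and 1.11 ± 0.13, and the H3K27 demethylase Kdm6b rose in COL BRAF by 0.71 ± 0.11 (adjusted p = 0.000935). Of 9 Wnt targets, 4 fell in COL BRAF, 6 in COL BRAFp53 (2 to 6 with 1 library left out), 6 of the 8 tested in SI BRAF and 1 in SI BRAFp53 (0 to 1 with 1 library left out), and none rose in any of these 4. Of 20 senescence-associated genes, secreted factors and others, COL tests covered 14 and SI tests 10, and 4 rose and 2 fell in COL BRAF (Hmgb1 and Glb1), 4 rose in COL BRAFp53, 3 rose and 2 fell in SI BRAF (Lmnb1 and Hmgb1) and 5 rose in SI BRAFp53. With 1 library left out these 6, 4, 5 and 5 calls became 2 to 5, 1 to 3, 4 to 5 and 3 to 4. The urokinase receptor gene Plaur rose in all 4, by 2.12 to 2.97, while Lmnb1, whose loss marks senescent nuclei, fell in SI BRAF (-0.90, adjusted p = 0.00235). Without SI BRAF on library 1 the SI BRAF counts were 4 higher and 2 lower for ERK output, 5 higher and 5 lower for the regulators of the INK4 locus, 7 lower for the Wnt targets and 3 higher and 2 lower for the senescence list. Without it the genes named here for SI BRAF kept their calls and directions, for example Cdk4 at -1.30, Cdk6 at -1.38, Mcm6 at -1.70, Dusp6 at 3.20, Id3 at 1.74 and Lmnb1 at -0.81. None of these lists had a called gene in the p53 cultures with edgeR, where 0 to 6 genes of a list had an unadjusted p under 0.05 and the alternatives, DESeq2 and limma-voom included, called at most 3.

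Markers of position along the crypt differed between on and off in these cultures and, for some markers, in both p53 cultures, where none of the 10 genes had a call. The stem cell gene Lgr5 was 42.2 to 53.2 CPM on against 149 to 162 off in COL BRAF, 58.6 to 79.3 against 218 to 272 in COL BRAFp53, 2.55 to 5.08 against 17.5 to 21.5 in SI BRAF and 14.0 to 20.8 against 28.3 to 30.4 in SI BRAFp53. The goblet cell mucin Muc2 was 486 to 552 CPM on against 109 to 113 off in COL BRAF, 812 to 920 against 203 to 340 in COL BRAFp53, 81.5 to 159 against 20.6 to 24.6 in SI BRAF and 77.7 to 131 against 7.77 to 11.2 in SI BRAFp53. The enterocyte sucrase Sis was 6100 to 7180 CPM on against 2550 to 3400 off in SI BRAF, 197 to 228 against 391 to 444 in COL BRAF and 2430 to 2520 against 2470 to 2710 in SI BRAFp53. The enterocyte phosphatase Alpi was 743 to 1260 CPM on against 289 to 334 off in SI BRAF, 101 to 117 against 36.2 to 95.8 in COL BRAF and 1840 to 3170 against 945 to 1230 in SI BRAFp53, so that these enterocyte genes went in opposite directions in COL BRAF. In COL BRAFp53, Sis was 13.6 to 35.2 CPM on against 121 to 139 off, while Alpi (44 to 72.1 against 51 to 78.6) overlapped. In COL p53, Sis was 9.91 to 11.9 CPM on against 42.4 to 43.4 off and Alpi 12.5 to 51.6 against 59.9 to 106, while Lgr5 (79 to 115 against 111 to 142) and Muc2 (538 to 711 against 608 to 646) overlapped. In SI p53, Lgr5 was 12.2 to 17.6 CPM on against 8.98 to 11.2 off and Alpi 515 to 547 against 696 to 991, while Sis (2300 to 2970 against 2090 to 2750) and Muc2 (7.86 to 9.58 against 6.99 to 8.55) overlapped. The part of these shifts in the changes of the CDK inhibitors and D cyclins was not tested.

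The genes whose log2 CPM (pseudocount 0.5), centred on the mean of the own culture, ran most like each member over the 24 libraries are given as a description with no test. The 24 points share 6 cultures and mostly reflect on against off. For Cdkn1a they were Stom (Pearson r = 0.975), Card19 (0.973) and Hk1 (0.973), out of 8997 candidates. For Cdkn2b they were Myo1d (0.970), Myo7b (0.958) and Stat3 (0.957), and for Cdkn2c Colca2 (0.952), Meaf6 (0.951) and Rfc4 (0.949). For Ccnd2 they were Sestd1 (0.886), Pdlim1 (0.861) and Egfr (0.845), for Ccnd1 Irak1 (0.835), Sh3pxd2b (0.824) and Nin (0.808), and for Ccnd3 Flna (0.816), Fads3 (0.798) and Impdh1 (0.788). For Cdkn1b they were Ccdc18 (0.903), Smim10l1 (0.901) and Pdzd8 (0.899), for Cdkn1c Abcc4 (0.869), Tpm4 (0.868) and Rcan1 (0.865), and for Cdkn2d Elf3 (0.843), Bhlhe40 (0.819) and Pde3a (0.805). The closest to Cdkn2a reached no more than 0.730 (Mtmr9).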

How the data were processed

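RNA sequencing of 24 mouse organoid libraries in 12 groups of 2 was analysed. The deposited values were raw read counts per gene, which the authors made from paired-end reads. Per the submitters' processing notes the tools were Trimmomatic 0.36 and STAR 2.5.2b and the builds mm10 and mm9, with no role given, and the annotation release and use of strand were not given in the sources used here. Of 45706 Ensembl identifiers, 45143 were matched to GENCODE M21 on GRCm38, whose exon union gave lengths for RPKM. Promoter letters came from RefSeq on GRCm38.p6, for 7 of the 10 genes.

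Counts were scaled by TMM, filtered with filterByExpr and fitted per tissue, over 12 libraries, with the quasi-likelihood test of edgeR 4.0.16 (R 4.3.3), or jointly over 24 for comparisons of tissues. For the off comparison the 2 libraries of a culture were summed. A gene counted as called when its p, adjusted by Benjamini and Hochberg over all tested genes, was under 0.05. SE is the log2 fold change over the root of F, and 95% intervals are 1.96 SE. This normal quantile makes the intervals narrower than the F test on few libraries. Some intervals therefore exclude 0 at an unadjusted p above 0.05. Paired libraries differed beyond counting noise in every group (chi-square per degree of freedom 22.3 to 102), so none was merged. Replicate numbers did not pair the libraries (correlations of deviations -0.07 to 0.08). DESeq2 1.42.0, limma-voom (limma 3.58.1), other scalings, filters and left-out libraries were alternatives. Named genes were the 10 members, Braf and Trp53, the 4 called genes per list and culture with the largest change (average log2 CPM of at least 3), of which a part is given, and the 3 genes most like each member. The members and lists were chosen with earlier results of these data known. Counting intervals were not used, and the floor of 3 counts covers counting error only. Some items are not reported here.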

Additional observations from a re-analysis of the deposited data

Results flagged for a closer look

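Each value below is a difference between responses that passed the joint or within-tissue edgeR test. In SI, the BRAFp53 response exceeded the BRAF response by 0.97 for Ccnd1 and by 0.87 for Ccnd3, on the log2 scale. Between COL and SI, the BRAF response differed by 1.04 for Ccnd1 and by 0.95 for Ccnd2, higher in COL. Between COL and SI, the BRAFp53 response differed by -0.80 for Cdkn1b and by -1.59 for Cdkn1c, lower in COL, and by 1.19 for Ccnd2, higher in COL. Of these 7, the Ccnd2 differences and the Ccnd1 difference between tissues kept their call on leaving out any 1 of their 8 libraries, and the other 4 did not.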

How the results depend on the processing

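Over the alternatives, 1372 of 1460 recomputed values of the 10 genes stayed on their side of the threshold, 62 lost a call, 26 gained one, and no called value changed sign. The sign changed in 53 values that were called neither before nor after. Counts of called genes over all genes moved more. Without a filter on low counts they were 569 in COL p53 (27 before), 155 in SI p53 (0 before), 1312 for COL BRAFp53 against BRAF, 488 for the tissue difference in p53 (23 before) and 1548 for that in BRAFp53 (693 before). With DESeq2 they were 324, 65, 1364, 162 and 1580 in the same order, and 2108 for SI BRAFp53 against BRAF (1383 before). At least 10 counts in every library gave 391 for COL BRAFp53 against BRAF and 39 for the tissue difference in p53. limma-voom gave 1 in SI p53, and the 4 libraries of a culture alone gave 14 in COL p53 and 17 in SI p53. The cause of these shifts was not tested.

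With 1 library or culture left out the counts ran from 1961 to 2489 in COL BRAF (3776 with all), 0 to 56 in COL p53, 1699 to 2399 in COL BRAFp53 (3360), 3573 to 5343 in SI BRAF (5345), 0 in SI p53 and 887 to 1333 in SI BRAFp53 (1941). They ran from 0 to 279 for COL BRAFp53 against BRAF, 597 to 2128 for SI BRAFp53 against BRAF, 1202 to 1833, 3 to 46 and 235 to 723 for the tissue differences in BRAF, p53 and BRAFp53, and 2479 to 5381 for the off organoids. Where 1 library remained in a group it was assumed to vary like the others.

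The replicate numbers share no source in the labels and did not pair the libraries. With the replicate number as a block, 15 genes were called in COL p53 and 17 for COL BRAFp53 against BRAF, and among the 10 genes Cdkn1c and Cdkn2c in COL BRAF, Cdkn1c in SI BRAF, Ccnd2 and Ccnd3 in SI BRAFp53, and Cdkn1b and Cdkn1c between the tissues in BRAFp53 lost their call (adjusted p = 0.0526 to 0.0863), while Cdkn2b in COL BRAF (0.0195) and Cdkn1a between the tissues in BRAF (0.0432) gained one.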
